A study of Mus musculus with 3 samples.

Results

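The ETS transcription factor genes examined here are *Fli1*, *Erg*, *Ets1*, *Ets2*, *Etv6*, *Gabpa*, *Elf1*, *Elf4*, *Spi1* and *Elk3*, 10 of the 22367 protein-coding genes of the GENCODE M1 annotation of mouse genome build mm9. They were listed by name as members of the ETS family, which includes the gene of the precipitated factor FLI1, and no threshold on reads defines the list. The list was, however, chosen with earlier results of these data known. The family has 26 genes in the lists used here, and the other 16 are described at the end. Chromatin came from mature megakaryocytes (MK Mat), the large cells that release platelets, grown for 5 days from livers of wild-type CD1 mouse embryos of embryonic day 15. Each of 3 libraries came from these cells: 1 precipitated with an antibody against FLI1, 1 with an antibody against RUNX1, and 1 of input DNA, which was sequenced without precipitation. Each ChIP library is a pool of 3 precipitates or more. Replicates are therefore lacking, groups cannot be tested against each other, and every interval below covers counting error only. All cells were wild-type, so no library lacks FLI1 or RUNX1 as a control for either antibody. According to the study, other blood lineages were depleted and a small residue of granulocytes and macrophages was left. The methods name input chromatin digested with micrococcal nuclease beside sonicated chromatin for FLI1 and RUNX1, whereas the labels name sonication only. If the input was digested, a ratio to input also reflects that difference in fragmentation, which cannot be told apart here. The methods also give another embryonic day than the labels.

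ETS factors share a DNA-binding domain, the ETS domain, that contacts a GGAA core, and the bases beside the core differ between subfamilies. In blood cells several of them are made at the same time, and FLI1 is the family member best known for the megakaryocyte lineage. RUNX1 belongs to a different family, reads a different sequence and is known to occupy many elements together with ETS factors. The questions asked of the reads were whether FLI1 occupied its own gene, which other genes of its family it occupied, and whether RUNX1 reads lay at the same places.

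After removal of mitochondrial reads and repeated input positions, 62946422 FLI1, 3973856 RUNX1 and 21745220 input reads remained. The FLI1 reads analysed were therefore 15.8 times as many as the RUNX1 reads, and a RUNX1 level had to be far higher to be seen. The RUNX1 reads are also a small part of the uniquely mapped reads that the study lists for this precipitate, and limits on RUNX1 given below are those of the reads analysed here. These reads hold no repeated positions, so whether the library held more distinct positions cannot be told. Each chromosome was divided into bins of 400 bp, and the expected reads of a bin were taken from the genome-wide rate or from the depth-scaled input over 1, 5 or 10 kb around it, whichever was highest. A bin is called enriched where the reads are at least 3 times the expected number and at least 7. At the genome-wide rate a bin is expected to hold 13.5 FLI1 reads, so that 41 reads are needed, and 0.85 RUNX1 reads, so that 7 reads are already 8.24-fold. Weaker RUNX1 sites can therefore be missed, since the minimum of 7 reads and not the 3-fold limit decides for RUNX1. The territory of a gene is its body with 20 kb on either side. As a check of the cell type, 7 of 7 megakaryocyte marker genes had a FLI1-enriched bin within 2 kb of the transcription start site (TSS) and 2 of them a RUNX1-enriched bin. For other lineages the FLI1 count was 1 of 4 erythroid, 3 of 5 granulocyte and macrophage, 0 of 4 lymphoid and 0 of 4 hepatocyte genes. Among all protein-coding genes the share with such a bin was 35.1% for FLI1 and 3.07% for RUNX1.

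FLI1 reads passed these limits at the promoters of *Fli1*, *Etv6*, *Gabpa*, *Elf1*, *Spi1* and *Elk3* and did not at those of *Erg*, *Ets1*, *Ets2* and *Elf4*. This is 6 of 10 genes with an enriched bin within 2 kb of the TSS, where 35.1% of all protein-coding genes had one. RUNX1 passed the same limits at 1 of the 10 promoters, that of *Fli1*, where 3.07% of all genes had such a bin. That count depends on how reads are placed in bins, since bins shifted by 200 bp gave 3 promoters (*Fli1*, *Etv6* and *Spi1*) and reads not shifted gave *Etv6* in place of *Fli1*. For *Spi1* the promoter is here the 5 prime end of its gene record, and its other annotated starts lie 13.7 and 14.4 kb further in. With FLI1 thinned to the RUNX1 depth, 2 promoters passed for FLI1, those of *Fli1* and *Gabpa*. Over whole territories, 9 of the 10 genes had a FLI1-enriched bin, *Ets2* being the exception, against 61.5% of all genes. For RUNX1 the number was 4 of 10 (*Fli1*, *Etv6*, *Elf1* and *Spi1*) against 10.8%. Territories of these genes were between 59.0 and 274.5 kb long, and longer territories have more bins in which to find one. Counted by bin, 66 of the 3504 bins in the 10 territories were FLI1-enriched, a share of 1.88% beside 0.689% of the bins in all gene territories, and 5 were RUNX1-enriched, a share of 0.143% beside 0.0472%. The median FLI1 over input within 2 kb of the TSS was 2.55 for the 10 genes and 1.28 for the 20448 genes with at least 20 input reads there. The corresponding RUNX1 medians were 1.81 and 1.18. Over all 26 ETS genes the FLI1 median was 1.35, and 10 of 26 (38.5%) had a FLI1-enriched promoter bin, close to the values of all genes. Because the 10 were chosen with earlier results of these data known, their values beside those of all genes are a description only.

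**Figure D1:**
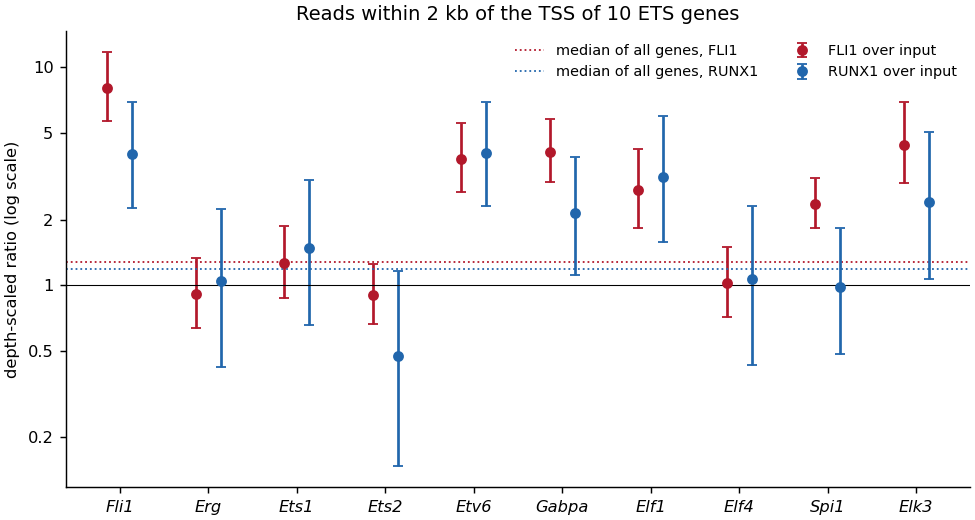
Reads within 2 kb of the TSS of each ETS gene, as the depth-scaled ratio of FLI1 (red) or RUNX1 (blue) to input on a log axis. Points are single libraries and bars are exact 95% intervals for counting error; dotted lines are the medians of all genes (1.28 for FLI1, 1.18 for RUNX1). *Fli1* has the highest FLI1 ratio, 8.04, and the intervals of *Erg*, *Ets1*, *Ets2* and *Elf4* include 1 for both antibodies.

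*Fli1* itself, on chromosome 9 on the minus strand (mm9 chr9:32229793-32348974), carried the most FLI1 reads at its start of the 10 genes. Within 2 kb of its TSS there were 768 FLI1, 24 RUNX1 and 33 input reads, which scale to 12.2, 6.04 and 1.52 RPM, a unit that divides by library depth. FLI1 was thus 8.04 times the input (95% interval 5.68 to 11.8) and RUNX1 3.98 times (2.25 to 6.94). Both precipitates stood above the input by more than their counting error. Of the 20448 genes ranked, 99.9% had a lower FLI1 ratio and 99.1% a lower RUNX1 ratio. FLI1 exceeded RUNX1 2.02-fold (1.35 to 3.17) after scaling to depth. The 3 genes with the most similar pair of FLI1 and RUNX1 ratios over these libraries were *Cfl1* (8.07 and 4.02), *Zyx* (8.18 and 4.26) and *Pfn1* (8.30 and 4.28).

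FLI1 reads at *Fli1* fell into 11 separate sites (enriched bins joined where at most 1 bin lay between them), more than at any other of the 10 genes. The promoter site had its summit, the base covered by most extended reads, at -70 bp. Its best bin held 219 FLI1, 5 RUNX1 and 5 input reads, 16.3 times the expected FLI1 reads. The next bin held 209 FLI1, 7 RUNX1 and 4 input reads and was the only RUNX1-enriched bin of the territory. It stood at the limit of 7 reads and was not called from reads left unshifted. An intergenic site at -15.1 kb had 228 FLI1, 4 RUNX1 and 2 input reads, at 16.9-fold the highest of this gene. A site in an intron at 11.6 kb had 158 FLI1, 2 RUNX1 and 7 input reads (8.53-fold). Further sites within 2 kb of the TSS lay at 1.98 kb (128 FLI1, 3 RUNX1 and 9 input reads, 5.26-fold) and at -1.83 kb (59, 1 and 2 reads, 3.95-fold). The remaining sites of *Fli1* lay between 3.25- and 5.42-fold. The bases around the summits at -70 bp, -15.1 kb and 11.6 kb are shown because they differ in ETS words. Capitals mark the word CAGGAAG, its variant CAGGAAA, the word CCGGAAG or its variant CCGGAAA on either strand. Each is the mm9 plus strand with 30 bases on either side of the summit.
Fli1 promoter, chr9:32349014-32349074: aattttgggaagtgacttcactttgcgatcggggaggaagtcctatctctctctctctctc
Fli1 at -15.1 kb, chr9:32364053-32364113: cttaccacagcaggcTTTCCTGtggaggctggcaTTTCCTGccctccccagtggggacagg
Fli1 at 11.6 kb, chr9:32337351-32337411: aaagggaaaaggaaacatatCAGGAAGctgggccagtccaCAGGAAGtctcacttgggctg
The promoter summit had none of these words within 50 bp, although GGAA occurred 2 times on either strand. The sites at -15.1 and 11.6 kb had 2 words each.

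**Figure D2:**
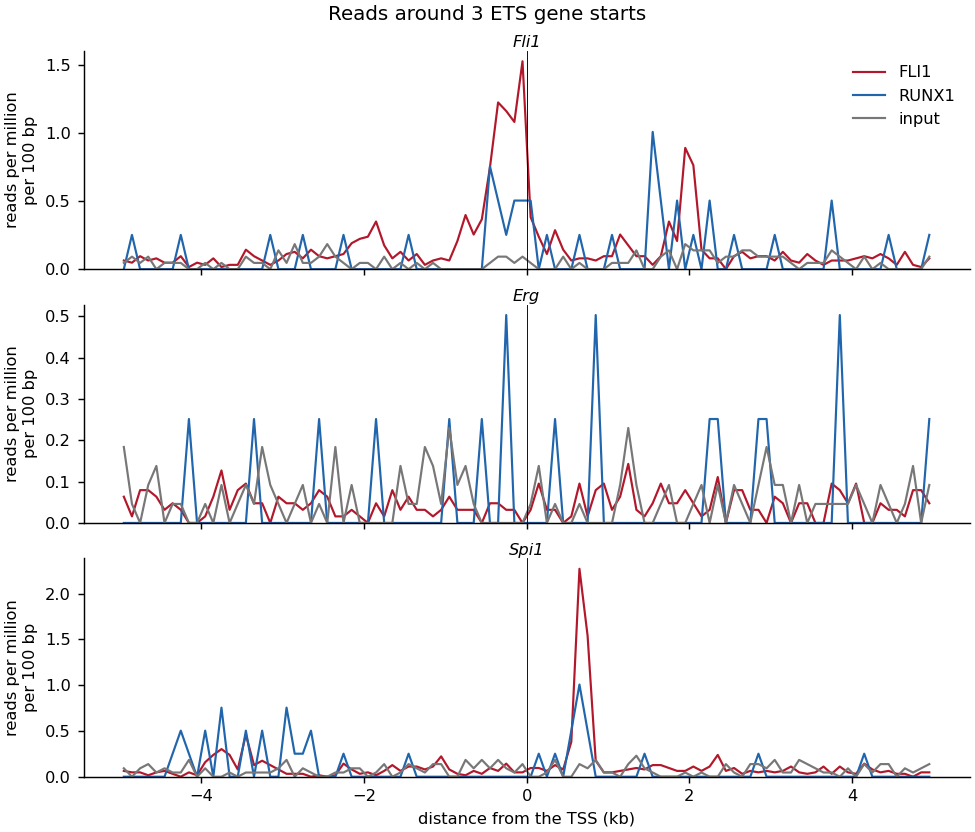
Depth-scaled reads (RPM) in 100-bp steps from 5 kb before to 5 kb after the start of *Fli1*, *Erg* and *Spi1* for FLI1 (red), RUNX1 (blue) and input (grey), with a separate y axis for each gene and the TSS at 0. FLI1 rises just before the *Fli1* start and at about 2 kb inside the gene, and at 0.694 kb in *Spi1*, whereas at *Erg* it reaches no more than 0.143 RPM. A single RUNX1 read is a visible step.

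*Erg* (mm9 chr16:95580776-95808200, minus strand), the closest relative of *Fli1* and a factor of blood stem cells and endothelium, showed no FLI1 enrichment at its annotated start. That window held 111 FLI1, 8 RUNX1 and 42 input reads. FLI1 over input was 0.913 (0.635 to 1.34) and RUNX1 over input 1.04 (0.423 to 2.25), and both intervals include 1. Within 1 kb the RUNX1 ratio was higher, 2.25 (0.790 to 5.72, 7 RUNX1 and 17 input reads), with an interval that also includes 1. *Erg* has 5 annotated starts, and 1 of them, at 127.2 kb inside the gene, did have FLI1. There, 218 FLI1, 3 RUNX1 and 44 input reads gave a FLI1 ratio of 1.71 (1.23 to 2.42) with 1 enriched bin, 5.08-fold. That bin held 77 FLI1, 1 RUNX1 and 1 input read, and its summit had no GGAA within 50 bp on either strand. The whole territory had 6 FLI1 sites, 4 of them in introns. The strongest, at 137.1 kb, had 148 FLI1, 3 RUNX1 and 4 input reads (9.91-fold), followed by that at 147.2 kb with 147, 2 and 13 reads (7.05-fold). No RUNX1-enriched bin was found, and the highest RUNX1 count in a bin was 5. The site at 137.1 kb held 3 ETS words within 50 bp, of which 2 lie in the stretch shown.
Erg at 137.1 kb, chr16:95671038-95671098: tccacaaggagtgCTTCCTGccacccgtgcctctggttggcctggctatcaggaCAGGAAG

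*Ets1* (mm9 chr9:32443806-32565405, plus strand) and *Ets2* (chr16:95923682-95942658, plus strand) encode a closely related pair of activators and had FLI1 reads at their starts close to the median of all genes, which was 143 reads. At the *Ets1* start there were 135 FLI1, 10 RUNX1 and 37 input reads, a FLI1 ratio of 1.26 (0.871 to 1.87). At the *Ets2* start there were 152 FLI1, 5 RUNX1 and 58 input reads, a FLI1 ratio of 0.905 (0.665 to 1.25) and a RUNX1 ratio of 0.472 (0.148 to 1.16). Neither gene was enriched at its other annotated start, where the FLI1 ratio was 1.15 (0.820 to 1.65) at *Ets1* and 0.610 (0.445 to 0.842) at *Ets2*. Over all annotated starts of *Ets2* both ratios lay below 1, at 0.750 (0.603 to 0.938) for FLI1 and 0.538 (0.271 to 0.975) for RUNX1. The *Ets1* territory had 1 FLI1 site, in an intron at 36.4 kb, with 134 FLI1, 2 RUNX1 and 2 input reads (9.95-fold) and no ETS word. The *Ets2* territory, 59.0 kb and 148 bins long, had none.

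The 4 genes form neighbouring pairs that point away from each other. *Fli1* and *Ets1* start 94.8 kb apart on chromosome 9, and *Erg* and *Ets2* start 115.5 kb apart on chromosome 16. Between the *Fli1* and *Ets1* starts, 12 of 238 bins were FLI1-enriched and 1 was RUNX1-enriched, whereas between *Erg* and *Ets2* 1 of 289 bins was FLI1-enriched and 0 were RUNX1-enriched. Reads alone do not assign a bin between 2 genes to either of them. Within their own territories the counts were 15 bins for *Fli1* and 1 for *Ets1*, and 6 for *Erg* and 0 for *Ets2*.

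*Etv6* (mm9 chr6:133985718-134220176, plus strand), which encodes a transcriptional repressor needed for blood stem cells in bone marrow, had the strongest site of all 10 genes and the strongest RUNX1 bin. At its start there were 374 FLI1, 25 RUNX1 and 34 input reads. FLI1 was 3.80 times the input (2.67 to 5.57) and RUNX1 4.02 times (2.30 to 6.94). RUNX1 was 1.92 times the input (0.684 to 4.71) when plus-strand reads alone were counted, 7 RUNX1 and 20 input reads. A further start 211.9 kb inside the gene had a FLI1 ratio of 1.23 (0.850 to 1.83) and no enriched bin, and over both starts the FLI1 ratio was 2.34 (1.84 to 3.02) and the RUNX1 ratio 2.38 (1.53 to 3.62). The promoter site had its summit at -440 bp, with 122 FLI1, 6 RUNX1 and 3 input reads in the best bin (9.06-fold). Its RUNX1 count stood 1 read below the limit of 7, and with bins shifted by 200 bp the promoter passed. *Etv6* had 8 FLI1 sites, of which 7 were intronic. The site at 150.8 kb held 251 FLI1, 15 RUNX1 and 5 input reads, 18.1-fold for FLI1 and 17.1-fold for RUNX1. The site at 154.3 kb held 226 FLI1, 5 RUNX1 and 8 input reads in its best bin (16.8-fold). These 2 intronic summits carried 4 and 3 ETS words within 50 bp, and in each a word abutted its own reverse complement, as the long run of capitals shows.
Etv6 at 150.8 kb, chr6:134136475-134136535: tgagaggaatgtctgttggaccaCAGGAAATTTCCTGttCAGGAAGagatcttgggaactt
Etv6 at 154.3 kb, chr6:134139940-134140000: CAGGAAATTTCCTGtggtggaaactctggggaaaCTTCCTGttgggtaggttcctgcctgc
Etv6 promoter, chr6:133985248-133985308: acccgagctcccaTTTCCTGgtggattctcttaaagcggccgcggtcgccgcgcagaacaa
Both intronic summits also had 1 RUNX word (TGTGGT or TGCGGT on either strand) within 50 bp, and the promoter summit had 1 ETS word and 0 RUNX words.

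*Gabpa* (mm9 chr16:84835170-84864024, plus strand), the DNA-binding subunit of the GA-binding protein, had its FLI1 reads in 1 place. Its start held 486 FLI1, 16 RUNX1 and 41 input reads, a FLI1 ratio of 4.10 (2.97 to 5.78) and a RUNX1 ratio of 2.14 (1.12 to 3.89). From plus-strand reads alone the RUNX1 interval includes 1 (2.39, 0.833 to 6.15, 7 RUNX1 and 16 input reads). The single site spans 3 enriched bins with a summit at 22 bp and 155 FLI1, 5 RUNX1 and 4 input reads in the best bin (10.3-fold). *Atp5j*, which encodes a subunit of the mitochondrial ATP synthase, starts 578 bp away on the other strand, so the site lies at both starts and cannot be given to either. It had 1 ETS word at the summit, shown with 30 bases because it touches a UTR.
Gabpa at 22 bp, chr16:84835178-84835207: gacgctcaccggaCAGGAAGcgcctcgaag

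*Elf1* (mm9 chr14:79881001-79982283, plus strand) and *Elf4* (chrX:45764223-45816309, minus strand), activators of the ELF subfamily with roles in lymphocytes, differed at their starts. *Elf1* had 221 FLI1, 16 RUNX1 and 28 input reads there, a FLI1 ratio of 2.73 (1.84 to 4.2) and a RUNX1 ratio of 3.13 (1.58 to 5.98). *Elf4* had 122, 8 and 41 reads, a FLI1 ratio of 1.03 (0.716 to 1.50) and a RUNX1 ratio of 1.07 (0.432 to 2.31). The 2 intervals for FLI1 do not overlap. This holds for the 5 prime ends of the gene records. The other start of *Elf1*, 34.5 kb further in, had a FLI1 ratio of 1.4 (1.01 to 1.96) with 1 enriched bin, and over all annotated starts the intervals of *Elf1* (1.89, 1.48 to 2.45) and *Elf4* (1.45, 1.10 to 1.93) overlap. They also overlap with FLI1 thinned to the RUNX1 depth and with plus-strand reads alone. The promoter site of *Elf1* had 55 FLI1, 5 RUNX1 and 4 input reads (4.09-fold) and would not pass a limit of 5-fold, and *Wbp4* starts 74 bp away on the other strand. Its introns held stronger sites, with 209 FLI1, 4 RUNX1 and 7 input reads at 54.3 kb (15.5-fold) and 203, 3 and 6 reads at 40.8 kb (11.7-fold). A further site at 106.1 kb, 12.4-fold with 172 FLI1, 1 RUNX1 and 3 input reads in its best bin, lay 414 bp from the start of the neighbouring gene *Sugt1*. The adjoining bin of that site held 8 RUNX1 reads and was the RUNX1-enriched bin of the *Elf1* territory. The strongest intronic summit held 1 ETS word.
Elf1 at 54.3 kb, chr14:79935290-79935350: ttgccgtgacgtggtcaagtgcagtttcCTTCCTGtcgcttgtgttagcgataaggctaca

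*Elf4* was occupied inside the gene. A start 8.96 kb downstream of the annotated one held 151 FLI1, 8 RUNX1 and 24 input reads, a FLI1 ratio of 2.17 (1.41 to 3.50) with 1 enriched bin (3.57-fold). Introns held 4 more sites, the highest at 29.4 kb with 104 FLI1, 1 RUNX1 and 7 input reads (7.13-fold) and at 33.3 kb with 89, 0 and 3 reads (6.61-fold). The X chromosome had fewer reads per bin than the autosomes in all 3 libraries, 7.20 against 11.1 for FLI1, 0.485 against 0.695 for RUNX1 and 2.72 against 4.05 for input. Because the expected reads are never below the genome-wide rate, a bin on X had to stand further above its surroundings to pass.

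*Spi1* (mm9 chr2:90922547-90955913, plus strand), named *Sfpi1* in the annotation, encodes PU.1, a factor of granulocytes, macrophages and B cells. The 5 prime end of its gene record held 459 FLI1, 12 RUNX1 and 67 input reads, a FLI1 ratio of 2.37 (1.83 to 3.11) and a RUNX1 ratio of 0.980 (0.483 to 1.83). That end belongs to a single transcript, as does each of the other annotated starts, which lie 13.7 and 14.4 kb further in. All 3 starts had FLI1-enriched bins, with FLI1 ratios between 2.30 and 2.40. The site at 0.694 kb had 191 FLI1, 3 RUNX1 and 10 input reads (8.25-fold), and in the 400 bp centred on its summit 275, 8 and 7 reads, so that RUNX1 was 6.25 times the input (1.98 to 20.3). With bins shifted by 200 bp the window around this 5 prime end also passed the limits for RUNX1. At the starts 13.7 and 14.4 kb further in, RUNX1 was 0.670 (0.235 to 1.57) and 0.858 (0.352 to 1.82) times the input. Neither of them had a RUNX1-enriched bin in unshifted bins. The site at 14.3 kb, 97 bp from the last of the 3 starts, had 96, 2 and 2 reads (7.13-fold). The strongest site of the territory, at -12.0 kb, had 295 FLI1, 10 RUNX1 and 2 input reads (16.1-fold) and lay 10 bp from the start of *Slc39a13*, a zinc transporter gene. It was also RUNX1-enriched (8.66-fold). A RUNX1 bin at -2.75 kb, with 7 RUNX1, 6 FLI1 and 3 input reads, was the only RUNX1-enriched bin of the 10 territories without FLI1. Since 3 of 5 granulocyte and macrophage marker genes had a FLI1-enriched bin at their start, with FLI1 ratios between 0.833 and 2.45 over the list, these values are given beside *Spi1*, and the part of such cells in its reads was not tested. The site at 0.694 kb held 2 ETS words and 1 RUNX word, which began in the last letters of an ETS word.
Spi1 at 0.694 kb, chr2:90923211-90923271: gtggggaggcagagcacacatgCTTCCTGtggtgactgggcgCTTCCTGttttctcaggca

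*Elk3* (mm9 chr10:92710159-92773880, minus strand), a ternary complex factor that acts with serum response factor and can repress its targets, had 319 FLI1, 11 RUNX1 and 25 input reads at its start. FLI1 was 4.41 times the input (2.93 to 6.92) and RUNX1 2.41 times (1.07 to 5.07). Against the genome-wide rate FLI1 was 2.37 (2.12 to 2.64) and RUNX1 1.29 (0.646 to 2.32), the latter with an interval that includes 1. The reads formed 2 sites near the start, at 0.164 kb (78 FLI1, 2 RUNX1 and 0 input reads, 5.79-fold) and at 1.78 kb (82, 4 and 2 reads, 6.09-fold). Beyond 2 kb the highest sites were intronic, at 16.1 kb with 93, 1 and 6 reads (6.18-fold) and at 42.6 kb with 58, 1 and 4 reads (4.31-fold). The summit nearest the start held 1 ETS word, shown with 30 bases because it touches a UTR.
Elk3 at 0.164 kb, chr10:92773702-92773731: gagagCAGGAAGttggagcagtcaggccga

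By FLI1 over input within 2 kb of the TSS the order was *Fli1*, *Elk3*, *Gabpa*, *Etv6*, *Elf1*, *Spi1*, *Ets1*, *Elf4*, *Erg* and *Ets2*. For each of the 9 steps the ratio between the neighbours' values was given an exact conditional 95% interval. It lay above 1 at 2 steps, from *Elk3* up to *Fli1* (1.82, 1.02 to 3.22) and from *Ets1* up to *Spi1* (1.88, 1.17 to 2.99), and included 1 at the other 7. The same reads set the order and gave these intervals, which are not adjusted for the 9 steps, so they are a description only. The interval of *Fli1* lay wholly above those of *Etv6*, *Elf1*, *Spi1* and the 4 genes at the low end, and overlapped those of *Elk3* and *Gabpa*. Against the genome-wide rate instead of the input, the order was *Fli1* (5.70), *Gabpa* (3.61), *Spi1* (3.41), *Etv6* (2.78), *Elk3* (2.37) and *Elf1* (1.64). *Ets2* (1.13), *Ets1* (1.00), *Elf4* (0.906) and *Erg* (0.824) followed. Within 1 kb of the TSS the FLI1 ratio was 15.6 (8.83 to 30.3) at *Fli1*, 9.57 (5.13 to 20.2) at *Etv6*, 7.38 (4.67 to 12.4) at *Gabpa*, 5.30 (2.71 to 11.8) at *Elf1*, 3.23 (2.30 to 4.67) at *Spi1* and 1.83 (1.01 to 3.62) at *Ets1*. It was lower than within 2 kb at *Elk3*, 3.48 (1.97 to 6.71). RUNX1 ratios in that window were 10.4 (4.60 to 25.03) at *Etv6*, 7.30 (2.82 to 19.6) at *Elf1* and 6.38 (2.74 to 15.1) at *Fli1*, from 19, 12 and 14 RUNX1 reads.

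**Figure D3:**
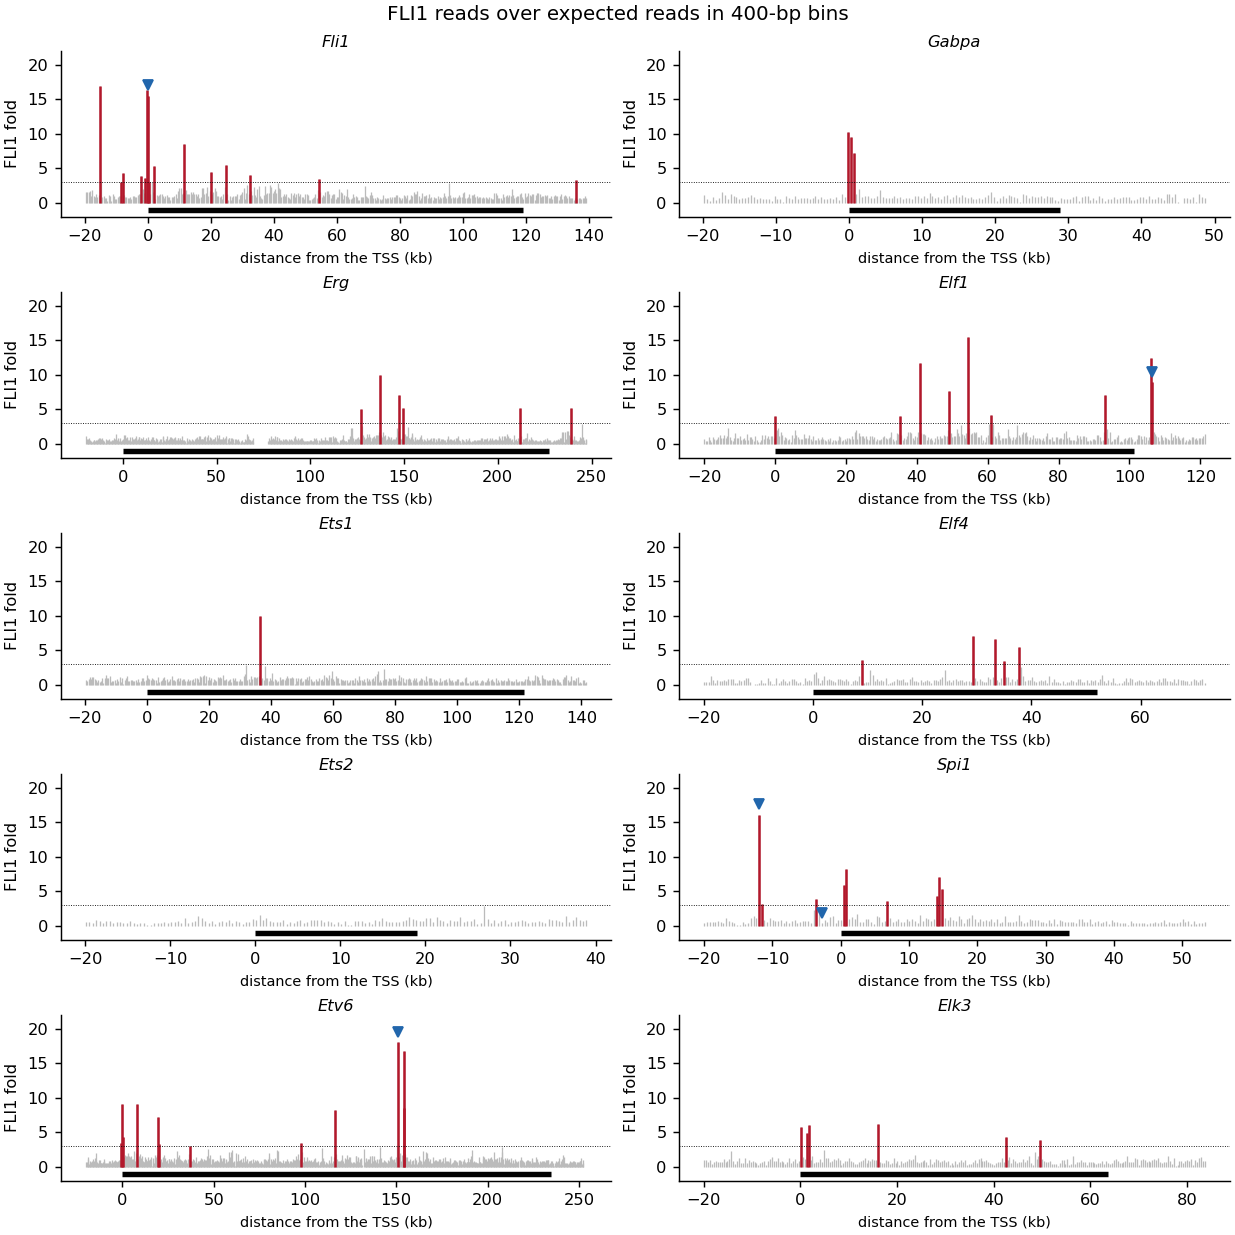
FLI1 reads over expected reads in each 400-bp bin of the 10 territories, against distance from the TSS in kb along the direction of transcription. Red lines are FLI1-enriched bins, grey lines all other bins, blue triangles RUNX1-enriched bins, black bars the gene, and the dotted line the limit of 3-fold. *Gabpa* has its enriched bins at its start alone, the other genes with enriched bins also or only have them elsewhere in the territory, and *Ets2* has none.

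Pooled over the 10 territories, RUNX1 reads were denser in FLI1-enriched bins than in the others, a comparison in which RUNX1 reads did not choose the bins. Most RUNX1 reads still lay in the other bins, 2786 beside 176. In the 66 FLI1-enriched bins there were 176 RUNX1 and 279 input reads, and RUNX1 was 3.45 times the input (2.84 to 4.18). In the remaining 3438 bins of the same territories it was 0.944 (0.907 to 0.983), and the 2 intervals are far apart. Input enters the choice of the bins, which favours bins with few input reads. Where the bins were chosen against the genome-wide rate alone, the ratio was 2.54 (2.15 to 3.00). Against the genome-wide rate instead of the input, RUNX1 in the 66 bins was 3.14 (2.69 to 3.64). Over all 28545 FLI1-enriched bins of the genome RUNX1 was 2.53 times the input (2.50 to 2.55), and over the bins of the 16 other ETS genes 2.28 (1.66 to 3.10). Whether the 10 genes differ from those sets was not tested.

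Per gene, RUNX1 over input in FLI1-enriched bins was 5.83 (3.82 to 8.91) at *Etv6*, 4.98 (1.89 to 12.9) at *Gabpa*, 3.82 (2.31 to 6.23) at *Spi1*, 3.65 (2.32 to 5.67) at *Fli1* and 3.61 (2.18 to 5.90) at *Elf1*. These 5 genes had intervals above that of their other bins. The bins of *Spi1* include the site at the *Slc39a13* start, whose best bin held 10 of their 30 RUNX1 reads. Those of *Elf1* include the site at the *Sugt1* start, whose bins held 1 and 8 of their 29. The ratio was 2.19 (0.834 to 5.19) at *Elk3*, 1.44 (0.640 to 2.95) at *Erg* and 5.47 (0.397 to 75.5) at *Ets1*, whose single bin had 2 RUNX1 reads. At *Elf4* it was 0.521 (0.0592 to 2.13), with 2 RUNX1 and 21 input reads in 5 bins. For these 4 genes the intervals include 1, so over these bins RUNX1 could not be told from input at this depth. At *Elk3* the interval of the 2-kb window around the start, given above, excludes 1, whereas those within 1 kb (1.68, 0.400 to 5.45) and from plus-strand reads alone (1.99, 0.462 to 6.71) include it.

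**Figure D4:**
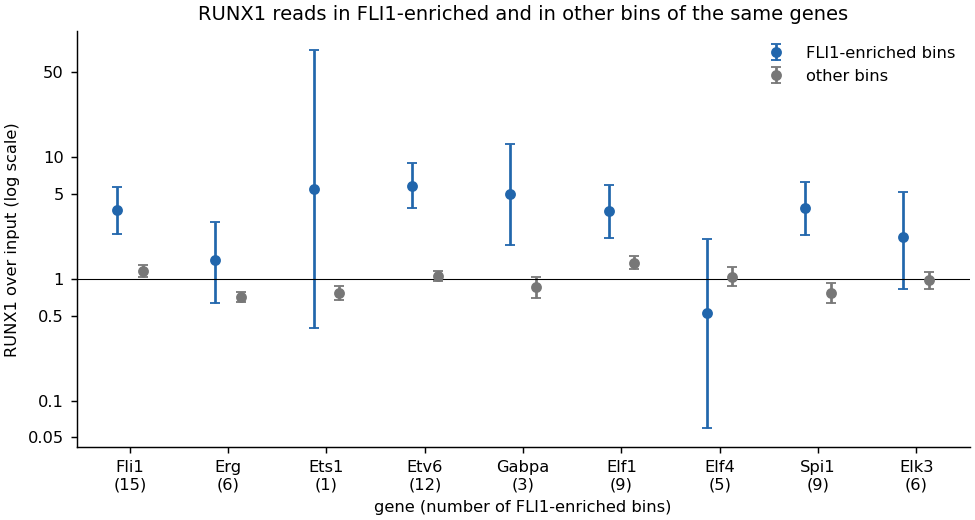
RUNX1 over input on a log axis in the FLI1-enriched bins (blue) and in all other bins (grey) of the territory of each ETS gene with at least 1 FLI1-enriched bin; the number of such bins is in brackets and bars are exact 95% intervals for counting error. Blue points stand clear of grey points at *Fli1*, *Etv6*, *Gabpa*, *Elf1* and *Spi1*, and the bars overlap at *Erg*, *Ets1*, *Elf4* and *Elk3*. The FLI1-enriched bins of *Elf1* and *Spi1* include those at the starts of *Sugt1* and *Slc39a13*.

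The enriched bins of the 10 territories joined into 50 FLI1 sites. Of these, 15 were at promoters (2 of them at the start of a gene other than the 10, *Slc39a13* and *Sugt1*), 30 in introns, 0 in exons and 5 elsewhere. A promoter site is here one within 2 kb of any annotated start of a protein-coding transcript, not of the gene record alone. Sites at the inner starts of *Erg* and *Elf4* are therefore among the 15. The fold of the 50 sites ranged from 3.05 to 18.1 with a median of 5.94, beside 4.82 for the 21796 FLI1 sites of the genome. RUNX1-enriched bins fell in 4 of the 50 sites (8%), beside 4.08% of all FLI1 sites. The best bins of the sites held between 0 and 15 RUNX1 reads with a median of 2, and 8 had 0 reads, which, with 3 reads taken as the most that a count of 0 allows, is a level of up to 3.53 times the genome-wide rate. In the 400 bp centred on the summits, RUNX1 was 5.28 times the input (3.58 to 7.79) over the 15 promoter sites and 2.74 times (2.07 to 3.59) over the 35 other sites. Against the genome-wide rate RUNX1 was 4.31 (3.25 to 5.62) and 2.72 (2.16 to 3.38), with intervals that overlap. FLI1 was 12.4 times (9.55 to 16.5) and 8.46 times (7.23 to 9.96) the input. FLI1 reads chose these sites and their summits, so a FLI1 level above the input is given by that choice. Input was lower at the promoter sites, with 57 reads over 15 windows beside 162 over 35.

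The sequence under the sites often held an ETS word. Of the 50 summits, 25 (50%) had at least 1 of the 4 ETS words spelled out above within 50 bp on either strand, whereas 9 of 100 windows (9%) 500 bp to either side did. Over all FLI1 summits the share was 58.7% beside 7.82% in their side windows, and at the TSS of all genes it was 15.3%. Sites with a word had a median of 8.25-fold and those without 5.08-fold. Of the 10 highest sites 7 had a word. The exceptions were the promoter of *Fli1*, the promoter of *Slc39a13* upstream of *Spi1*, and the intron of *Ets1*. The GGAA core alone lay within 50 bp of 47 of the 50 summits. It was absent at the inner starts of *Erg* and *Elf4* and at the *Spi1* site at -3.46 kb. RUNX words (TGTGGT or TGCGGT) were at 20% of the summits and 11% of the side windows, and GATA words (AGATAA or TGATAA) also at 20% and 11%. Over all FLI1 summits the shares were 19% for RUNX words and 14.5% for GATA words. A match describes these letters only and is not a measured contact of a factor.

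Of the other 16 mouse ETS genes, 4 (25%, beside 35.1% of all genes) had a FLI1-enriched bin at the promoter, namely *Elk4*, *Etv1*, *Etv3* and *Etv4*, and 0 had a RUNX1-enriched bin there (3.07% of all genes). Over their territories 11 of 16 (68.8%, beside 61.5% of all genes) had a FLI1-enriched bin, with 35 of 2688 bins in all (1.3%, beside 0.689%). A RUNX1-enriched bin was found in the territories of 0 of 16 (10.8% of all genes), in 0 of 2688 bins. The median FLI1 over input was 1.14, and whether the 16 differ from the 10 was not tested. The highest ratio among genes with at least 20 input reads was at *Elk4*, a ternary complex factor like *Elk3*, with 494 FLI1, 23 RUNX1 and 45 input reads and a ratio of 3.79 (2.79 to 5.27). *Etv5* followed with 1.96 (1.39 to 2.85) and *Etv4* with 1.76 (1.21 to 2.62), both of the PEA3 subfamily. The lowest were the epithelial genes *Spdef* (0.450, 0.320 to 0.635) and *Elf3* (0.564, 0.405 to 0.792) and the lymphoid gene *Spib* (0.589, 0.433 to 0.807), where FLI1 stood below the input. *Elf2*, left out of this ranking for its 16 input reads, had 197 FLI1 and 17 RUNX1 reads and higher ratios than *Elk4*, 4.25 (2.56 to 7.59) for FLI1 and 5.81 (2.76 to 12.3) for RUNX1, with no enriched bin at its start.

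**Figure D5:**
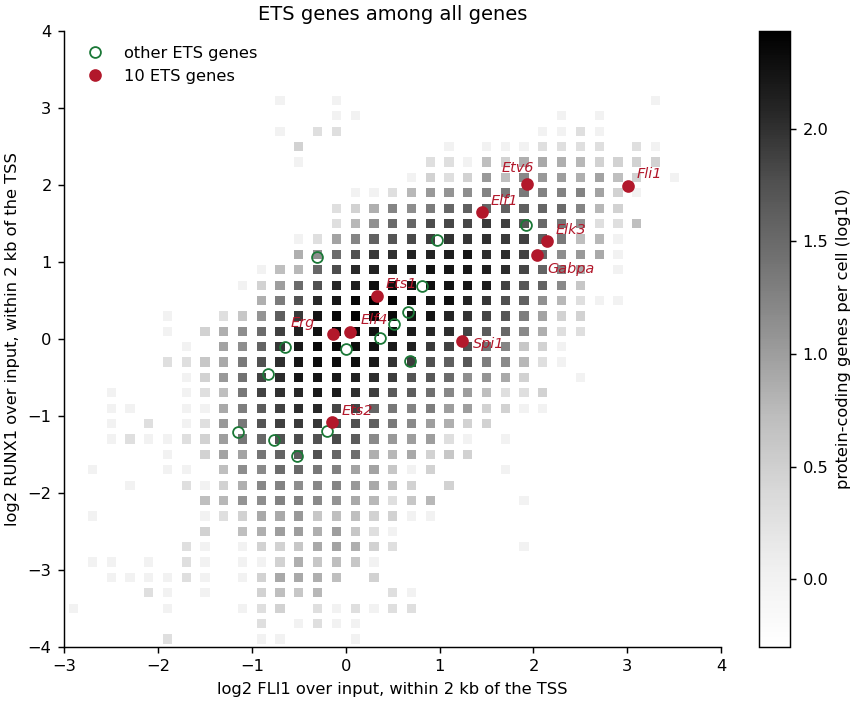
FLI1 against RUNX1, each over input within 2 kb of the TSS, as log2 ratios. Grey squares count protein-coding genes with at least 20 input reads, red points are the 10 ETS genes and open green circles the other ETS genes (*Elf2* is not drawn). *Fli1* lies at the right edge of the cloud, *Etv6*, *Gabpa*, *Elf1* and *Elk3* to its left at 2.73 to 4.41-fold FLI1 over input, and the remaining ETS genes mostly near the centre.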

How the data were processed

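ChIP-seq reads of FLI1, RUNX1 and input were analysed from 3 libraries of MK Mat. The authors aligned the ChIP reads with Bowtie to mm9, retained those with a unique alignment and removed redundant ones. What they deposited is a list of read positions with strands and no normalized unit, so every read number here is a count of deposited reads. The deposited ChIP reads hold each position and strand 1 time, whereas 3.24% of input reads repeated a position and were removed. The aligner of the input file is not given in the sources used here. MACS 1.4 and SICER 1.1, in the submitters' processing notes, were not used. The methods and the labels differ on embryonic day, DNA amount, kit and fragmentation of the input.

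Reads were moved to the centre of the fragment, whose length is the distance at which opposite strands pair most often (126 bp for FLI1, 159 bp for RUNX1, 158 bp for input). The effective genome size was 1870000000 bases, and bins were left out where input exceeded 10 times its mean genome-wide rate (313 of 6604651). Ratios have exact conditional binomial (Clopper-Pearson) 95% intervals. ChIP reads can be both ends of 1 fragment, so reads are not always independent. The calling of bins and the coverage of a ratio interval were tested on simulated reads, whereas sites, summits and words were not. The simulated bins were raised well above the 3-fold limit, so calls near that limit were not covered. Recovery of raised bins was required for FLI1 only, so the test does not show that RUNX1 bins are found. Gene starts are the 5 prime ends of GENCODE M1 gene records, 9 of 10 genes being found under their name and *Spi1* through its older symbol in RefSeq. Named sites were, for each gene, those within 2 kb of the TSS and the 2 highest outside it. Of the other ETS genes, the 3 highest and 3 lowest FLI1 ratios were named. The inner starts, the third *Elf1* site and the RUNX and GATA words were added after values were seen. Members and lists were chosen with earlier results of these data known. Python 3.11.15, numpy 2.4.6, scipy 1.17.1 and pysam 0.24.0 were used.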

Additional observations from a re-analysis of the deposited data

How the results depend on the processing

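No paired analysis was possible because each antibody has 1 library. Of 239 values under other settings 215 kept within their limits (1.5 times for a count, the 95% interval for a ratio), 24 moved, and 0 ratios with an interval that excluded 1 crossed to the other side of 1. Some ratios with an interval that included 1, such as both ratios of *Erg* and *Elf4*, did cross it. Part of the 239 values could not move. Ratios within 2 kb of a TSS do not use bins, so shifted bins left them unchanged. *Fli1* has 1 annotated start, so counting all starts left its ratios unchanged. The minimum of 7 reads, already 8.24-fold, left RUNX1 calls little room to change with the fold limit. The number kept is therefore no measure of how firm the results are. FLI1 thinned to the RUNX1 depth gave 2 genes with an enriched promoter bin (*Fli1* and *Gabpa*), 27 bins and 12 summits with an ETS word of 23. Plus-strand reads alone gave 0 promoters and 1 bin for RUNX1. Since 4 of the 5 RUNX1 bins hold 7 to 10 reads against a minimum of 7, counting 1 strand had to lose most of them and is no check of these calls. Bins shifted by 200 bp gave 3 RUNX1 promoters (*Fli1*, *Etv6* and *Spi1*), that of *Spi1* being the 5 prime end of its gene record. A limit of 2-fold gave 149 FLI1 bins, 40 summits with an ETS word of 100 and a RUNX1 ratio in FLI1 bins of 2.45, and a limit of 5-fold gave 40 bins and 5 FLI1 promoters, that of *Elf1* being lost. That ratio was 2.54 without local input and 2.41 with local input only. Territories with 50 kb on either side gave 38 summits with an ETS word of 67. With starts of all protein-coding transcripts 8 genes had a FLI1 promoter bin, *Erg* and *Elf4* being added. Reads not shifted gave 1 RUNX1 promoter, *Etv6* in place of *Fli1*.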
